A study of Arabidopsis thaliana with 12 samples.

Results

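The subject is the group of genes whose RNA was lowered at least 2-fold in rbm25-1 seedlings of *Arabidopsis thaliana* both without and with abscisic acid (ABA). A gene belonged to the group when its FPKM (mapped fragments divided by transcript length and by library total) in rbm25-1 was at most 0.5 times that of wild type (WT) in both conditions, and when WT had at least 1 FPKM in each condition. Of 16987 identifiers with at least 1 FPKM in both WT groups, 48 met the rule, and 18486 identifiers were joined across both mutant comparisons in all. The 4 groups of 3 replicates each (12 samples) were rbm25-1 without treatment, WT without treatment, rbm25-1 with ABA and WT with ABA. WT was the ecotype Col-0, seedlings were 2 weeks old on agar, and the hormone was sprayed at 0.1 mM for 6 hours. Seeds of all 4 groups were stratified for 4 days. No mock spray is named for the untreated groups, and rbm25-1 was the only mutant line analysed here. RNA came from bulked seedlings and was polyadenylated, so that fewer cells of a type and less RNA per cell cannot be told apart.

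In human cells, RBM25 binds pre-mRNA through its RRM and PWI domains and takes part in the choice of splice sites together with the U1 snRNP. ABA is the hormone of drought and seed dormancy, and part of its signalling runs through genes whose pre-mRNA is alternatively spliced. MicroRNA precursors are transcribed by RNA polymerase II, capped, polyadenylated and often spliced before the hairpin is cut, so that their primary transcripts can be seen in polyadenylated RNA.

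The genes were chosen by the authors' group FPKM in these same contrasts, so every fold change between rbm25-1 and WT below is a description and carries no test of the choice. The deposited tables hold 1 value per group, so no SD is given, and sequencing depth is unknown. The rbm25-1 over WT ratio was at most 0.5 in 95 identifiers without ABA (0.559% of 16987) and in 279 with ABA (1.64%). The 48 shared ones (0.283%) made up 50.5% of the untreated list and 17.2% of the ABA list. The opposite pattern, at least 2-fold higher in rbm25-1 in both conditions, was found in 29 identifiers.

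**Figure D1:**
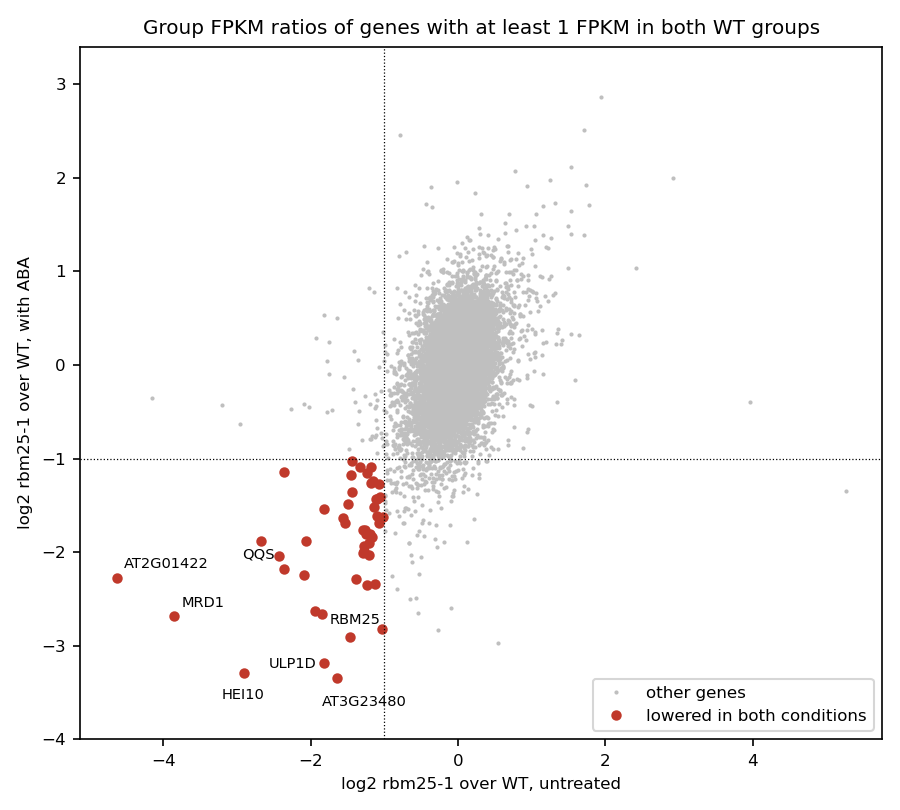
Each grey point is a gene with 1 identifier and at least 1 FPKM in both WT groups and each red point 1 of the 48 members, placed by the log2 ratio of rbm25-1 over WT without ABA (horizontal) and with ABA (vertical). The dotted lines mark a log2 ratio of -1, and the red points in the lower left corner are the lowered genes, with AT2G01422 farthest left at -4.63 and AT3G23480 lowest at -3.34.

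Among the 48 were 38 protein-coding entries, 3 microRNA genes, 3 long non-coding RNA (lncRNA) genes, 2 other non-coding RNA genes, 1 small nucleolar RNA (snoRNA) gene and 1 transcribed pseudogene in the RefSeq annotation of TAIR10.1. The 3 microRNA genes are shown first by sequence, because the primary transcripts measured here differ while 2 of them give the same mature RNA. In the mature sequences below, annotated in RefSeq on TAIR10.1 and printed 5′ to 3′ as DNA letters, capitals mark the seed, bases 2 to 8. MIR166a lies on the plus strand of chromosome 2 and MIR166e on the minus strand of chromosome 5, and their 3p products share the seed and every base. MIR171b lies on the minus strand of chromosome 1 and has another seed.
miR166a-3p, chr2:19176241-19176261: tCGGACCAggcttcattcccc
miR166e-3p, chr5:16775524-16775544: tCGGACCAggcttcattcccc
miR171b-3p, chr1:3961367-3961387: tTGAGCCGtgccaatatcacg

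Known targets of miR166 are the HD-ZIP III transcription factors of leaf polarity and vascular tissue, and known targets of miR171 are the HAM genes, which maintain meristems. The best match of each microRNA in the annotated transcripts of these targets is shown to set the precursors beside the messages they are known to cleave. Capitals mark bases that form no Watson-Crick pair with the microRNA. The HD-ZIP III sites run across an exon junction in TAIR10.1, so that their genomic span is longer than the site. The sites of ATHB-15, HAM2 and HAM3 lie on the minus strand and that of REV on the plus strand.
ATHB-15, chr1:19412976-19413085: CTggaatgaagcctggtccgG
REV, chr5:24398787-24398898: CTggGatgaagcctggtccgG
HAM2, chr3:22411547-22411567: AgGgatattggcGcggctcaa
HAM3, chr4:58414-58434: GgGgatattggcGcggctcaa
The sites of ATHB-15, HAM2 and HAM3 had 3 bases each without a Watson-Crick pair, and that of REV had 4. A G that faces a U of the microRNA is counted among these.

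RBM25 (AT1G60200), the gene the label names, is itself a member, so its low ratios were fixed by the rule and are no check of the label. Its gene lies on the minus strand of chromosome 1 at 22200694 to 22205400. RBM25 had 2.55 FPKM in untreated rbm25-1 and 9.15 FPKM in untreated WT, and 1.46 FPKM in rbm25-1 with ABA and 9.26 FPKM in WT with ABA. The mutant thus kept 27.9% of the WT level without ABA and 15.8% with it. Where in the gene the mutant lesion lies is not given in the sources used here.

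Beside RBM25 on the chromosome lay 2 more members. ULP1D (AT1G60220, also called OTS1), a protease that removes SUMO from proteins and acts in salt tolerance, starts 2.69 kb from RBM25. ULP1D had 2.23 FPKM in untreated rbm25-1 and 7.87 FPKM in untreated WT, and 1.00 FPKM in rbm25-1 with ABA and 9.12 FPKM in WT with ABA. AT1G60230 overlaps the end of ULP1D on the opposite strand. It had 5.68 FPKM in untreated rbm25-1 and 16.4 FPKM in untreated WT, and 2.27 FPKM in rbm25-1 with ABA and 7.32 FPKM in WT with ABA. In all 3 genes the mutant lay below WT within each condition, as the rule fixes. For AT1G60230, WT was itself lower with ABA (log2 -1.16, authors' q = 0.000132 in the authors' deposited table).

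Among genes of the region with at least 1 FPKM in both WT groups, no other was lowered 2-fold in both conditions. Within 1000 kb of RBM25, 217 genes with 1 identifier had at least 1 FPKM in both WT groups, and 3 of them were members. The median log2 ratio of the other 214 was 0.01 without ABA and -0.01 with ABA, and the lowest was -0.96 without ABA and -1.36 with ABA. On the other side of RBM25, emb1220 was the nearest of these 214 genes. It had 38.3 FPKM in untreated rbm25-1 and 38.0 FPKM in untreated WT. With ABA, emb1220 had 38.4 FPKM in rbm25-1 and 33.9 FPKM in WT. RBM25 itself lies in a deposited locus of 2 identifiers. An effect of the mutation on its neighbours and one of lower RBM25 levels cannot be told apart with 1 allele.

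**Figure D2:**
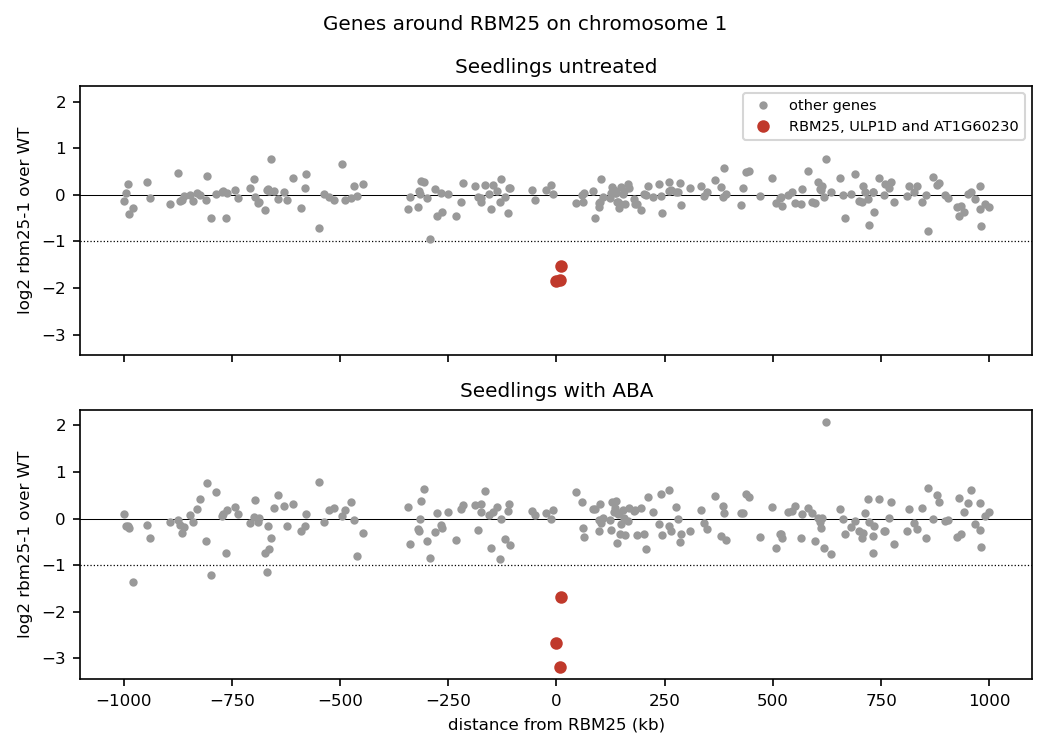
The log2 ratio of rbm25-1 over WT (vertical) is plotted against the distance in kb from RBM25 (horizontal) for genes within 1000 kb, without ABA (top) and with ABA (bottom). RBM25, ULP1D and AT1G60230 (red) lie below -1 in both panels, and the other genes centre on 0.

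By the mean of both log2 ratios, the lowest protein-coding member that passed the authors' test was HEI10 (AT1G53490, chromosome 1, 19963267 to 19966952, plus strand). HEI10 encodes a RING-finger protein that accumulates at sites of meiotic crossover and sets their number. It had 3.29 FPKM in untreated rbm25-1 and 24.6 FPKM in untreated WT, and 2.18 FPKM in rbm25-1 with ABA and 21.5 FPKM in WT with ABA. These leave 13.4% and 10.2% of the WT level, with authors' q values (adjusted p) of 0.00171 and 0.000132 in the authors' deposited tables. Of 10 meiotic crossover genes on the list used here, 4 were measured without ABA, and HEI10 was the only one lower, while PTD (AT1G12790) was higher at 15.1 FPKM in rbm25-1 and 6.70 FPKM in WT (authors' q = 0.000132 in the authors' deposited table). PTD was also higher with ABA, at 8.42 FPKM in rbm25-1 and 5.04 FPKM in WT.

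MRD1 (AT1G53480) overlaps HEI10 on the opposite strand. It had 0.280 FPKM in untreated rbm25-1 and 4.04 FPKM in untreated WT, and 0.444 FPKM in rbm25-1 with ABA and 2.85 FPKM in WT with ABA. Neither difference passed the authors' q under 0.05 (0.258 and 0.194 in the authors' deposited tables). Whether the libraries kept the strand is not stated, so that reads of HEI10 and MRD1 in the shared stretch cannot be told apart. MUM4, which overlaps HEI10 at its other end, had 17.0 FPKM in untreated rbm25-1 and 16.3 FPKM in untreated WT, and 18.2 FPKM in rbm25-1 with ABA and 15.8 FPKM in WT with ABA.

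Of all 48, 38 were lower at the authors' q under 0.05 without ABA, where 7.31% of all 16987 identifiers were lower, and 40 with ABA, where 14.7% were. Both tests were passed by 37 members (background 3.39%), 1 test by 4 and neither by 7. The rule used these same contrasts, so nothing is read from the counts. The 7 without a pass were MRD1, AT4G22233, AT4G22217, AT1G79170, AT1G16489, AT5G03550 and AT1G09500, and all of these but AT1G79170 share a deposited locus with other identifiers. AT1G09500 sat in a locus of 18 identifiers and AT5G03550 in a locus of 23. Of all 48 members, 15 (31.25%) shared a deposited locus, and 19.3% of all 16987 identifiers did. HEI10, ULP1D and THA1, which passed both tests, were among the 15.

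**Figure D3:**
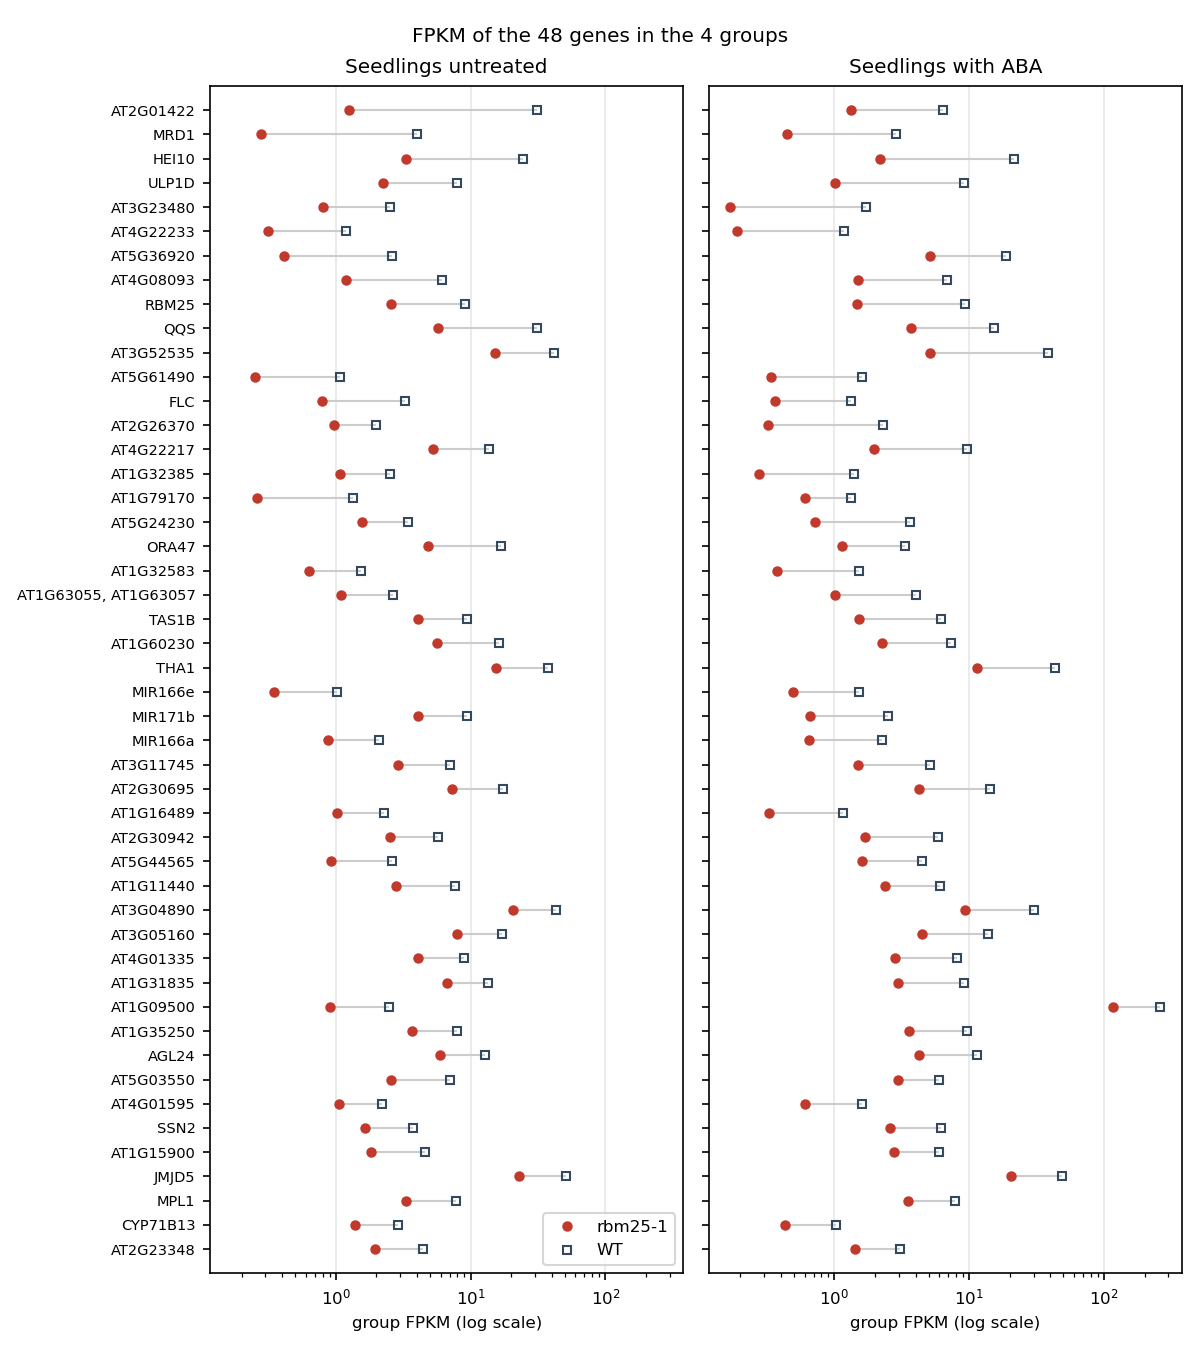
Group FPKM on a log axis for each of the 48 genes (rows, the lowest mean ratio on top), in rbm25-1 (filled circles) and WT (open squares), untreated (left) and with ABA (right). The circle lies left of the square in every row, as the rule fixes, and the gap is widest for AT2G01422 among untreated seedlings.

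In all 9 microRNA genes with at least 1 FPKM in both WT groups, primary transcripts had log2 ratios below 0, though not all passed the authors' q. MIR171b had 4.09 FPKM in untreated rbm25-1 and 9.44 FPKM in untreated WT, and 0.664 FPKM in rbm25-1 with ABA and 2.48 FPKM in WT with ABA. MIR166a had 0.882 FPKM in untreated rbm25-1 and 2.103 FPKM in untreated WT, and 0.644 FPKM in rbm25-1 with ABA and 2.26 FPKM in WT with ABA. MIR166e had 0.347 FPKM in untreated rbm25-1 and 1.03 FPKM in untreated WT, and 0.489 FPKM in rbm25-1 with ABA and 1.52 FPKM in WT with ABA, near the limit of the rule. For all 3 the deposited locus was longer than the annotated hairpin, which for MIR171b has 117 bases, so the values are those of precursor transcripts and not of mature microRNAs.

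Of the 9 microRNA genes with at least 1 FPKM in both WT groups, all 9 had a log2 ratio below 0 in both conditions. Among 15835 protein-coding genes, 8102 were below 0 without ABA and 7469 with ABA. By the authors' q under 0.05, 5 of 9 were lower and none higher without ABA, and 7 of 9 were lower and none higher with ABA, where 7.31% and 14.7% of all identifiers were lower. The rule chose 3 of the 9 for low ratios, and of the other 6, 3 were lower without ABA and 4 with ABA. The median log2 ratio of the 9 was -0.82 without ABA and -1.12 with ABA, and that of protein-coding genes was -0.01 and 0.02. MIR157a, the precursor of a regulator of SPL genes and of the change from juvenile to adult leaves, had 4.46 FPKM in untreated rbm25-1 and 8.83 FPKM in untreated WT, which put it just outside the 2-fold limit. With ABA, MIR157a had 2.82 FPKM in rbm25-1 and 7.85 FPKM in WT. MIR162a, whose product targets the processing enzyme DCL1, had 11.8 FPKM in untreated rbm25-1 and 16.0 FPKM in untreated WT, and 4.89 FPKM in rbm25-1 with ABA and 10.6 FPKM in WT with ABA. MIR168a, whose product targets AGO1, had 2.34 FPKM in untreated rbm25-1 and 3.82 FPKM in untreated WT, and 2.30 FPKM in rbm25-1 with ABA and 4.11 FPKM in WT with ABA. MIR160a and MIR160c passed the authors' q in neither condition, and MIR159b passed only with ABA. Without the 3 members the class medians were -0.57 without ABA and -0.95 with ABA.

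TAS genes are non-coding precursors that microRNAs cut to start the production of trans-acting small RNAs. TAS1B had 4.05 FPKM in untreated rbm25-1 and 9.34 FPKM in untreated WT, and 1.52 FPKM in rbm25-1 with ABA and 6.22 FPKM in WT with ABA. All 5 TAS genes on a list added after the members were seen were measured. By the authors' q, 3 were lower without ABA (TAS1A, TAS1B and TAS2) and all 5 with ABA, against a background of 7.13% and 14.1% of all single nuclear genes. TAS1B is a member, chosen for low ratios in these same contrasts, so nothing is read from its calls. TAS1A had 34.1 FPKM in untreated rbm25-1 and 54.7 FPKM in untreated WT, and 10.05 FPKM in rbm25-1 with ABA and 29.2 FPKM in WT with ABA. TAS3 did not pass without ABA, at 65.7 FPKM in rbm25-1 and 67.03 FPKM in WT, and was lower with ABA, at 18.7 FPKM in rbm25-1 and 34.5 FPKM in WT.

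**Figure D4:**
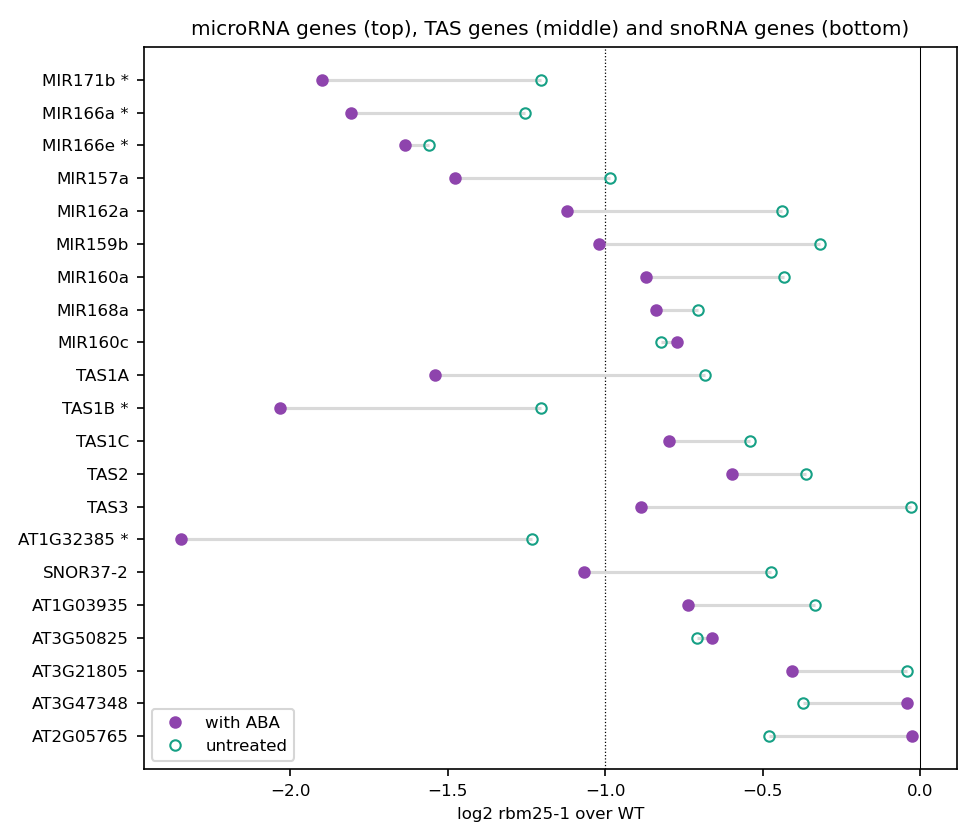
The log2 ratio of rbm25-1 over WT with ABA (filled) and without ABA (open) for 9 microRNA genes, 5 TAS genes and 7 snoRNA genes, with an asterisk at members of the lowered group. Every point lies left of 0, and the members TAS1B and AT1G32385 reach -2.03 and -2.35 with ABA.

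The known target messages gave calls in both directions. Of 5 HD-ZIP III genes, 2 were lower without ABA (PHV and HB-8) and none higher by the authors' q, and with ABA 2 were higher (PHB and HB-8) and none lower. HB-8, the gene of vascular differentiation, had 4.58 FPKM in untreated rbm25-1 and 6.53 FPKM in untreated WT, and 3.89 FPKM in rbm25-1 with ABA and 3.01 FPKM in WT with ABA. Of 3 HAM genes, none passed without ABA, and HAM2 was higher with ABA, at 6.71 FPKM in rbm25-1 and 5.33 FPKM in WT. The background of higher calls was 6.02% without ABA and 18% with ABA. Mature microRNAs were not measured.

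The other non-coding members hold the largest single difference. AT2G01422, a non-coding RNA of chromosome 2 (183940 to 184734, plus strand), had 1.26 FPKM in untreated rbm25-1 and 31.2 FPKM in untreated WT, and 1.32 FPKM in rbm25-1 with ABA and 6.39 FPKM in WT with ABA. Both mutant groups were low and the WT groups stood far apart, with WT lower after ABA (log2 -2.29, authors' q = 0.000132 in the authors' deposited table). AT3G52535, a lncRNA opposite OFP18, had 15.1 FPKM in untreated rbm25-1 and 41.8 FPKM in untreated WT, and 5.11 FPKM in rbm25-1 with ABA and 38.5 FPKM in WT with ABA. OFP18 on the other strand did not pass in either condition, with 3.98 FPKM in untreated rbm25-1 and 3.80 FPKM in untreated WT, and 2.32 FPKM in rbm25-1 with ABA and 1.97 FPKM in WT with ABA. The snoRNA gene AT1G32385, of a class that guides the modification of ribosomal RNA, had 1.07 FPKM in untreated rbm25-1 and 2.51 FPKM in untreated WT, and 0.275 FPKM in rbm25-1 with ABA and 1.40 FPKM in WT with ABA. With 1 FPKM added, its log2 ratios were -0.76 without ABA and -0.91 with ABA. Its deposited locus of 1.056 kb was longer than the annotated 85 bases. The RNA was polyadenylated, so values of this class need not be those of the mature snoRNAs. The pseudogene AT4G08093 had 1.20 FPKM in untreated rbm25-1 and 6.14 FPKM in untreated WT, and 1.51 FPKM in rbm25-1 with ABA and 6.85 FPKM in WT with ABA.

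In all, 10 of the 48 (20.8%) were non-coding or pseudogenes, and 262 of 16097 annotated genes with at least 1 FPKM (1.63%) were. All 7 snoRNA genes had log2 ratios below 0 in both conditions, with medians of -0.47 and -0.66. By the authors' q, 3 of them were lower without ABA and 2 with ABA, and none was higher. Without the member AT1G32385 the medians were -0.42 and -0.53, and of these 6 genes 2 were lower without ABA and 1 with ABA. With ABA, AT3G47348 and AT2G05765 were near 0 (log2 -0.04 and -0.03). Of 15835 protein-coding genes, 8102 were below 0 without ABA and 7469 with ABA. Among 199 lncRNA and other RNA genes, 34 were lower and 5 higher without ABA by the authors' q, and 57 were lower and 12 higher with ABA, where 7.31% and 14.7% of all identifiers were lower. Without the 5 members among them, 31 of 194 were lower without ABA and 54 with ABA. Over all 199 the median log2 ratio was -0.17 without ABA and -0.30 with ABA. Short genes moved the same way: protein-coding genes with transcripts under 500 bases had medians of -0.06 and -0.27 (108 genes), and those of 2000 bases or more 0.04 and 0.17 (5639 genes). The part of transcript length in the lower values was not tested.

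Several members regulate flowering or the clock. FLC, the MADS-box repressor of flowering (chromosome 5, 3173382 to 3179448, minus strand), had 0.784 FPKM in untreated rbm25-1 and 3.28 FPKM in untreated WT, and 0.363 FPKM in rbm25-1 with ABA and 1.33 FPKM in WT with ABA. AGL24, a MADS-box activator of flowering, had 5.92 FPKM in untreated rbm25-1 and 12.7 FPKM in untreated WT, and 4.26 FPKM in rbm25-1 with ABA and 11.5 FPKM in WT with ABA. The lowered group thus held a repressor and an activator of the same step. JMJD5 (JMJ30), a Jumonji-domain protein of the circadian clock, was the highest expressed member without ABA, with 22.8 FPKM in untreated rbm25-1 and 50.7 FPKM in untreated WT, and 20.5 FPKM in rbm25-1 with ABA and 48.7 FPKM in WT with ABA.

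On a list of flowering regulators added after the members were seen, 12 of 13 genes were measured. Without ABA 4 were lower (FLC, MAF4, SVP and AGL24) and 2 higher (MAF1 and SOC1) by the authors' q, and with ABA 5 were lower (FLC, MAF4, MAF5, SVP and AGL24) and none higher. Over all single nuclear genes 7.13% were lower and 6.02% higher without ABA, and 14.1% were lower and 18% higher with ABA. FLC and AGL24 are members, chosen for low ratios. MAF4, a relative of FLC, had 1.07 FPKM in untreated rbm25-1 and 1.84 FPKM in untreated WT, and 0.572 FPKM in rbm25-1 with ABA and 1.48 FPKM in WT with ABA. SVP, a repressor that acts with FLC, had 75.5 FPKM in untreated rbm25-1 and 92.6 FPKM in untreated WT, and 37.8 FPKM in rbm25-1 with ABA and 51.1 FPKM in WT with ABA. SOC1 (listed as AGL20), an activator that FLC represses, had 51.0 FPKM in untreated rbm25-1 and 37.5 FPKM in untreated WT, and was not called with ABA, at 65.8 FPKM in rbm25-1 and 72.7 FPKM in WT. The list's median log2 was -0.26 without ABA and -0.25 with ABA, beside -0.01 and 0.03 over all single nuclear genes. In WT, 2 of the 12 were higher with ABA (background 26.2% of all single nuclear genes) and 6 lower (background 30.3%), FLC among the lower ones. Flowering time itself was not recorded in the files used here.

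A further set acts in metabolism. QQS, an orphan gene that affects the share of carbon and nitrogen put into starch and protein, had 5.78 FPKM in untreated rbm25-1 and 31.2 FPKM in untreated WT, and 3.70 FPKM in rbm25-1 with ABA and 15.2 FPKM in WT with ABA. THA1, a threonine aldolase that turns threonine into glycine, had 15.4 FPKM in untreated rbm25-1 and 37.3 FPKM in untreated WT, and 11.4 FPKM in rbm25-1 with ABA and 43.6 FPKM in WT with ABA. AT1G35250 (ALT2), an acyl-lipid thioesterase, had 3.69 FPKM in untreated rbm25-1 and 7.93 FPKM in untreated WT, and 3.58 FPKM in rbm25-1 with ABA and 9.68 FPKM in WT with ABA. The mutant stayed under every WT value of its own gene in all 3 cases. AT3G23480 had the lowest ratio with ABA, with 0.168 FPKM in rbm25-1 and 1.71 FPKM in WT, after 0.808 FPKM in untreated rbm25-1 and 2.52 FPKM in untreated WT. Its neighbour on the same strand, AT3G23470, was also lower, with 2.94 FPKM in untreated rbm25-1 and 5.09 FPKM in untreated WT, and 1.55 FPKM in rbm25-1 with ABA and 2.91 FPKM in WT with ABA (authors' q = 0.000132 in both, in the authors' deposited tables).

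A few members are known from jasmonate signalling and defence. ORA47, an AP2/ERF transcription factor that switches on jasmonate synthesis, had 4.83 FPKM in untreated rbm25-1 and 17.0 FPKM in untreated WT, and 1.14 FPKM in rbm25-1 with ABA and 3.33 FPKM in WT with ABA. MPL1, a lipase induced by aphids, had 3.32 FPKM in untreated rbm25-1 and 7.77 FPKM in untreated WT, and 3.52 FPKM in rbm25-1 with ABA and 7.85 FPKM in WT with ABA. SSN2, found as a suppressor of the defence repressor mutant sni1, had 1.65 FPKM in untreated rbm25-1 and 3.74 FPKM in untreated WT, and 2.60 FPKM in rbm25-1 with ABA and 6.23 FPKM in WT with ABA. For MPL1 the hormone changed neither genotype by more than 0.1 on the log2 scale. CYP71B13, a cytochrome P450, had 1.39 FPKM in untreated rbm25-1 and 2.91 FPKM in untreated WT, and 0.429 FPKM in rbm25-1 with ABA and 1.04 FPKM in WT with ABA.

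Members without a gene name in the annotation included some of the highest and the lowest levels. AT3G04890 was the second highest without ABA, with 20.5 FPKM in untreated rbm25-1 and 43.1 FPKM in untreated WT, and 9.36 FPKM in rbm25-1 with ABA and 30.2 FPKM in WT with ABA. AT2G26370 had the largest deepening with ABA, with 0.972 FPKM in untreated rbm25-1 and 1.99 FPKM in untreated WT, and 0.323 FPKM in rbm25-1 with ABA and 2.28 FPKM in WT with ABA. AT5G36920 had 0.412 FPKM in untreated rbm25-1 and 2.63 FPKM in untreated WT, and 5.09 FPKM in rbm25-1 with ABA and 18.7 FPKM in WT with ABA, the only member besides AT1G09500 whose mutant level with ABA was above its untreated WT level. AT4G22217 and AT4G22233, a pair 4.13 kb apart on chromosome 4, met the rule without passing the authors' q in either condition. AT3G05160, a sugar transporter-like gene, had 7.97 FPKM in untreated rbm25-1 and 17.0 FPKM in untreated WT, and 4.46 FPKM in rbm25-1 with ABA and 13.7 FPKM in WT with ABA. AT5G61490 had 0.251 FPKM in untreated rbm25-1 and 1.07 FPKM in untreated WT, and 0.340 FPKM in rbm25-1 with ABA and 1.61 FPKM in WT with ABA. The 11 members not described singly ranged between 0.631 and 4.07 FPKM in untreated rbm25-1 and between 1.54 and 8.99 FPKM in untreated WT, and between 0.374 and 2.82 FPKM in rbm25-1 with ABA and between 1.51 and 8.07 FPKM in WT with ABA. Their log2 ratios ran between -1.49 and -1.05 without ABA and between -2.34 and -1.09 with ABA.

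The lowering was deeper with ABA in most members. The median log2 ratio of the 48 was -1.29 without ABA (range -4.63 to -1.01) and -1.81 with ABA (range -3.34 to -1.03), beside -0.01 and 0.02 over all 16987 identifiers. The ratio was lower with ABA in 34 members and higher in 14, with a median difference of -0.36 on the log2 scale (0.02 over all). A level at least 4-fold lower than WT was found in 9 members without ABA and in 17 with ABA. In 6 members the ratio was lower by at least 1 on the log2 scale with ABA, against 0.989% of all identifiers, and in 3 it was higher by at least 1 (AT2G01422, MRD1 and AT1G79170). The rule chose members by both ratios. Its limit was met by 279 identifiers with ABA and 95 without, so nothing is read from these comparisons with all identifiers. No interaction test was possible, because no value per sample was used here.

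Members were mostly low or middling in expression. Their median was 2.095 FPKM in untreated rbm25-1 and 6.57 FPKM in untreated WT, and 1.51 FPKM in rbm25-1 with ABA and 6.04 FPKM in WT with ABA. Over all identifiers the WT median was 12.5 FPKM without ABA and 12.98 FPKM with ABA. Of the 48, 22 were under 5 FPKM in untreated WT, and 24.4% of all identifiers were.

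The response of the members to ABA in WT was read next, a contrast the rule did not use as such although it shares both WT groups with it. By the authors' q under 0.05, 3 members were higher with ABA in WT (background 26.7%) and 13 were lower (background 29.9%), and 32 were not called. The 3 higher ones were SSN2 (log2 0.74), AT5G44565 (log2 0.79) and AT1G09500 (log2 6.71). AT1G09500, an alcohol dehydrogenase-like gene inside a locus of 18 identifiers, had 263 FPKM in WT with ABA and 2.50 FPKM in untreated WT (authors' q = 0.00689 in the authors' deposited table), and 116 FPKM in rbm25-1 with ABA and 0.914 FPKM in untreated rbm25-1. ORA47 (log2 -2.35), AT2G01422 (log2 -2.29), MIR171b (log2 -1.93), CYP71B13 (log2 -1.49) and FLC (log2 -1.30) were among the 13 lower ones in the authors' deposited table. RBM25 was not called, with 9.26 FPKM in WT with ABA and 9.15 FPKM in untreated WT.

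In rbm25-1 no deposited table sets ABA against untreated, so only ratios of group values are given, with no test. WT values were identical to the last deposited digit between the tables in 18445 of 18445 genes compared, which allowed group values of different tables to be set side by side. The median log2 ratio of ABA over untreated was -0.62 in rbm25-1 and -0.15 in WT, beside -0.01 in rbm25-1 and -0.05 in WT over all identifiers. It was below 0 in 35 members in rbm25-1 and in 30 in WT. The sign differed between the genotypes in 13 members. These medians hold the same 4 values per gene as the difference of ratios above, so the same limit of the choice applies to them.

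**Figure D5:**
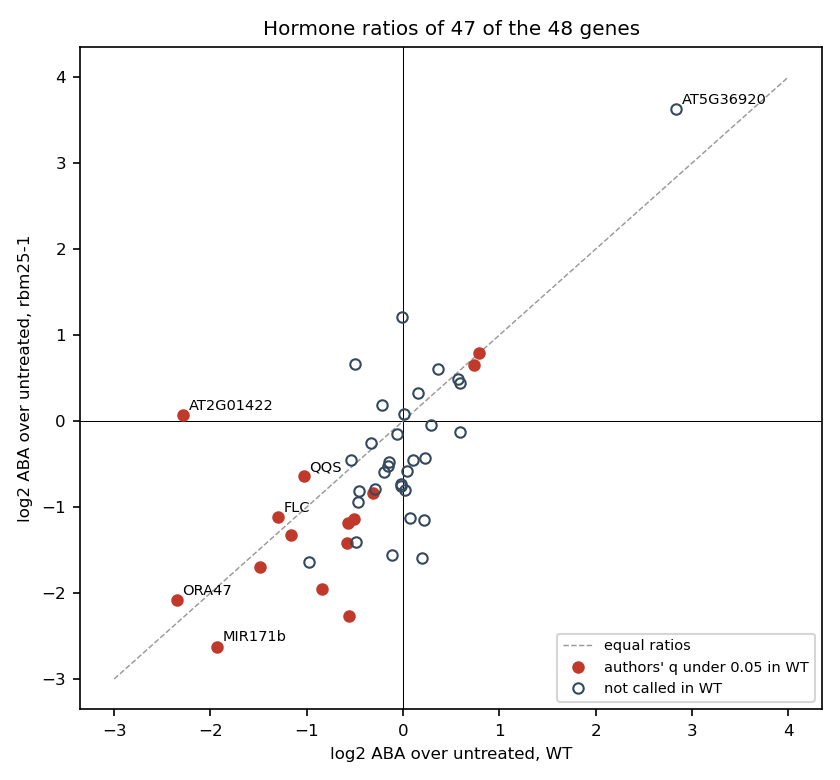
The log2 ratio of ABA over untreated FPKM in rbm25-1 (vertical) and in WT (horizontal) for 47 members, without AT1G09500 (log2 6.71 in WT), which lies off the scale. Points below the dashed line had a lower ratio in rbm25-1, AT2G01422 stands apart on the left with a WT ratio of -2.29, and filled points passed the authors' q under 0.05 in WT.

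Splicing was a readout that the rule did not use. The splicing tables give the percent spliced in (PSI), the share of transcripts that include a stretch, per event and group. Within the annotated span of a member lay 21 events in 9 members in the untreated comparison and 20 events in 7 members in the ABA comparison. At an unadjusted p under 0.05, 1 of 21 and 1 of 20 member events passed, where 6.13% of 9849 events and 6.4% of 11170 events did. After Benjamini-Hochberg adjustment within each table none of them passed. RBM25 itself had no event in either mutant comparison.

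The untreated event was a 14-base cassette exon of AT2G30695, a trigger factor-like protein gene on the minus strand of chromosome 2 at 13079926 to 13079939. It was included at 70% in rbm25-1 and 100% in WT (authors' p = 0.0264 in the authors' deposited table, adjusted p = 0.700). With ABA, no event of this exon was listed between rbm25-1 and WT. Within WT it stood at 100% with ABA and 100% untreated (authors' p = 0.827 in the authors' deposited table). The exon is printed in capitals with 20 bases of intron on either side, since it carries the only member event that passed the unadjusted threshold without ABA.
AT2G30695 exon, chr2:13079906-13079959: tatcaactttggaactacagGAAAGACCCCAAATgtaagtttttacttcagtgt
It is preceded by AG and followed by GT, the usual intron ends. The gene had 7.26 FPKM in untreated rbm25-1 and 17.5 FPKM in untreated WT, and 4.21 FPKM in rbm25-1 with ABA and 14.3 FPKM in WT with ABA.

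The ABA event was the choice of first exon in THA1. One first exon was used at 72.2% in rbm25-1 and 87.0% in WT with ABA (authors' p = 0.0180 in the authors' deposited table, adjusted p = 0.631). A second one was used at 25% in rbm25-1 and 10.8% in WT with ABA (authors' p = 0.0553 in the authors' deposited table). In WT the same 2 events passed the unadjusted threshold with the hormone and not the adjusted one: the one stood at 87.0% with ABA and 97.9% untreated (authors' p = 0.000369, adjusted p = 0.353), and the second at 10.8% with ABA and 0% untreated (authors' p = 0.00149, adjusted p = 0.523), both in the authors' deposited table.

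The remaining events gave no common direction. Without ABA all 4 cassette exons had a lower PSI in rbm25-1 (median difference -15.0 points). These include the AT2G30695 exon above, and the others lay in AT3G05160 and in JMJD5, where the difference was -0.82 points. All 4 alternative acceptor events had a higher PSI without ABA (median 7.25 points), and of 11 retained introns 8 were higher and 2 lower. With ABA 2 cassette exons had equal PSI in both genotypes, and of 9 retained introns 2 were higher and 6 lower. The alternative acceptor of AGL24 stood at 76.9% in rbm25-1 and 58.3% in WT without ABA (authors' p = 0.198), and at 50.8% in rbm25-1 and 58.1% in WT with ABA (authors' p = 0.514), in the authors' deposited tables. A p that misses the threshold does not show that PSI was equal.

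In gene structure the members were shorter than the rest. Their median transcript had 1042 bases and 3 exons, and over all annotated genes 1705 bases and 4 exons. A single exon was annotated in 15 of 47 members with 1 identifier (31.9%) and in 15.2% of all. The 29 identifiers raised at least 2-fold in both conditions were also short, with a median of 1028 bases and 2 exons over 24 annotated ones, but 1 of these 24 was non-coding. An overlap with another annotated gene was found for 22 of 48 members (45.8%) and for 32.3% of all genes, and 18 of the 22 had a partner on the opposite strand.

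On the opposite strand, 8 partners of 8 members were measured and were not themselves members, with a median log2 ratio of 0.06 without ABA and 0.22 with ABA. By the authors' q, 1 was lower in each condition (AT4G01593) and 1 was higher with ABA (PAB4). With the 3 partners on the same strand there were 11, of which 2 were lower in each condition (AT3G23470 and AT4G01593) and 1 higher with ABA. PAB4, a poly(A)-binding protein gene opposite AT2G23348, had 67.8 FPKM in untreated rbm25-1 and 68.4 FPKM in untreated WT, and 58.0 FPKM in rbm25-1 with ABA and 42.4 FPKM in WT with ABA.

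Members lay on all 5 chromosomes. Chromosome 1 held 19 (39.6%) and 26.0% of all annotated genes with at least 1 FPKM, chromosome 2 held 6 (12.5% beside 15.4%), chromosome 3 held 7 (14.6% beside 19.95%), chromosome 4 held 7 (14.6% beside 15.0%) and chromosome 5 held 9 (18.8% beside 23.6%). Within 10 kb of another member lay 7 members, in the RBM25, HEI10 and AT4G22217 neighbourhoods.

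Promoter windows, 250 bases before to 50 bases after the annotated start, were searched on both strands for 6 motifs. ACGTG, the core of the ABA response element, was in 35.4% of member windows, in 24.6% of all 37897 windows and in 27.9% of those of measured genes. CACGTG, the G-box that holds this core, was in 6.25% of member windows, 6.46% of all and 8.82% of measured genes. TATAAA was in 54.2% of member windows, 48.8% of all and 51.7% of measured genes. TTGAC, the core of the W-box, was in 54.2% of member windows, 49.5% of all and 50.7% of measured genes. CGCGTT, the core of a CAMTA site, was in 4.17% of member windows, 3.36% of all and 3.73% of measured genes, and AAAATATCT, the evening element, in 4.17%, 2.49% and 3.13% of the same. A match is a description of the letters only.
The 250 bases before the start are printed for QQS and FLC, both members that fell in WT with ABA and that hold ACGTG, with that motif or its overlap with its own reverse complement in capitals, from RefSeq on TAIR10.1. QQS lies on the plus strand and FLC on the minus strand.
QQS, chr3:12348797-12349046: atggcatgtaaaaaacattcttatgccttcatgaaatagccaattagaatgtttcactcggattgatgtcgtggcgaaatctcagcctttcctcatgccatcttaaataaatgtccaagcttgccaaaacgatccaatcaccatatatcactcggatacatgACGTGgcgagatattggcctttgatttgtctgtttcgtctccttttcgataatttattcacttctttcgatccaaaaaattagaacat
FLC, chr5:3179449-3179698: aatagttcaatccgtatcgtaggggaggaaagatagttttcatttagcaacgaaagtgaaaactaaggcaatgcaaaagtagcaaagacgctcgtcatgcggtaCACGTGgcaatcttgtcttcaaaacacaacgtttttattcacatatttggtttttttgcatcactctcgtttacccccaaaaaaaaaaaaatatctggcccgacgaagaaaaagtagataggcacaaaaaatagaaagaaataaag
QQS held ACGTG once in this window, and in FLC the motif stood within CACGTG. AT1G09500, the member that rose most with ABA in WT, also held ACGTG and CACGTG in its promoter window. AT2G01422 and MIR171b, which fell with ABA in WT, held neither, while ORA47, the member that fell most, held ACGTG. RBM25 held both ACGTG and CACGTG and was not called with ABA in WT.

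The lists of other pathways show what the lowered group does not hold. Rapid stress genes, which rise within minutes of handling or cold, fell without ABA in 12 of 20 measured and rose in none, and with ABA 5 of 21 were lower and 5 higher, but no gene of the list is a member. The shares over all single nuclear genes were 7.13% lower and 6.02% higher without ABA, and 14.1% lower and 18% higher with ABA. DIC2, a mitochondrial dicarboxylate carrier, had 1.41 FPKM in untreated rbm25-1 and 13 FPKM in untreated WT, and 10.4 FPKM in rbm25-1 with ABA and 13.9 FPKM in WT with ABA. CAF1a, a deadenylase, had 7.48 FPKM in untreated rbm25-1 and 57.9 FPKM in untreated WT, and 40.1 FPKM in rbm25-1 with ABA and 62.0 FPKM in WT with ABA. Of 4 SUMO protease genes, ULP1D was the only one lower in either condition. Of 8 DNA methylation and silencing genes, 1 was lower without ABA (DML1), and 1 was lower and 3 higher with ABA.

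Markers of 5 tissues or cell types were read beside the lowered genes, and they were not called alike. The 4 mesophyll markers summed to 9665 FPKM in untreated rbm25-1 and 7346 FPKM in untreated WT, and to 4054 FPKM in rbm25-1 with ABA and 2353 FPKM in WT with ABA, with 2 of 4 higher without ABA and 4 of 4 with ABA. The 6 stomatal markers summed to 37.6 FPKM in untreated rbm25-1 and 34.7 FPKM in untreated WT, and to 22.8 FPKM in rbm25-1 with ABA and 17.7 FPKM in WT with ABA, with none called without ABA and 3 higher with it. Of 5 root markers without ABA, by the authors' q IRT1 was higher, at 3.04 FPKM in rbm25-1 and 0.372 FPKM in WT, and CASP4 lower, at 4.31 FPKM in rbm25-1 and 6.79 FPKM in WT. With ABA 2 root markers were listed and none was called. CASP1 had 76.0 FPKM in untreated rbm25-1 and 75.5 FPKM in untreated WT. The 2 root markers listed in every table (CASP1 and CASP4) summed to 80.3 FPKM in untreated rbm25-1 and 82.3 FPKM in untreated WT, and to 21.8 FPKM in rbm25-1 with ABA and 29.2 FPKM in WT with ABA. The 2 seed markers listed in every table (CRA1 and OLEO2) summed to 0.568 FPKM in untreated rbm25-1 and 2.86 FPKM in untreated WT, and to 8.97 FPKM in rbm25-1 with ABA and 1.79 FPKM in WT with ABA. By the authors' q, CRA1 was lower without ABA and OLEO2 was higher with it. With ABA, CRA1 had 3.80 FPKM in rbm25-1 and 0.024 FPKM in WT and was not called. Of the seed markers, OLEO1 had 0.948 FPKM in rbm25-1 with ABA and was listed at 0 in WT with ABA. SUC2 of phloem companion cells had 46.98 FPKM in untreated rbm25-1 and 49.7 FPKM in untreated WT, and 94.5 FPKM in rbm25-1 with ABA and 59.8 FPKM in WT with ABA. By the authors' q, SUC2 was higher with ABA and not called without it. The part of tissue makeup in the lowered genes was not tested.

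At the edge of the rule, members and genes just outside it had nearly the same ratios. Nearest inside were AT1G31835, with 0.496 of the WT level without ABA, AT5G03550, with 0.490 with ABA, and AT2G26370, with 0.489 without ABA. Nearest outside were JAL22, AGL87 and SCPL12, with 0.502, 0.503 and 0.504 of the WT level without ABA.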

How the data were processed

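RNA of 12 samples in 4 groups was read from 6 tables, 3 of genes and 3 of splicing events. Per the submitters' processing notes, the tools were Trimmomatic 0.32, TopHat2 2.0.13, Cufflinks 2.2.1 and Cuffdiff, with the build TAIR10, and no settings are given. Per the file headers, the gene tables hold for each group an FPKM that the authors computed, plus a log2 fold change, a p-value and an adjusted p-value (q). The deposited splicing tables hold the percent spliced in per group, its signed difference as a score in points, and a p-value whose test is not given in the sources used here. Strandedness is not given in the sources used here. No label says that replicates were separate cultures, so the spread behind these p-values may be technical.

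Rows were joined by identifier and locus, repeated identifiers were left out, and ratios were formed from the deposited FPKM with no pseudocount (python 3.11.15, pandas 2.3.3). The rule was tested on simulated tables. Splicing p-values were adjusted by Benjamini-Hochberg within each table. Damaged events (28, 28 and 33 in the untreated, ABA and WT comparisons) and events outside the annotated span of the gene they are listed under (3, 2 and 2 for members) were left out. Names, structure and sequences came from RefSeq on TAIR10.1, on which 95.7%, 95.0% and 95.6% of the introns in the deposited splicing tables had GT-AG ends.

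The members and the lists were chosen with earlier results of these data known. Named were the 14 members with the lowest mean log2 ratio, the 8 with the highest WT level, those within 1000 kb of RBM25, on a list, with a splicing event at p under 0.05, with the 4 highest and 4 lowest ABA ratios in WT, nearest to the limit, or within 10 kb of another member. MIR166a, MIR166e, TAS1B, AT1G32385, AGL24, MPL1, AT1G35250, AT3G05160, AT1G79170, AT1G16489 and AT2G23348, and the lists of TAS, HD-ZIP III, HAM and flowering genes with their members, were named after their values were seen, as were the genes that are no members other than those on a list. Alternatives covered the ratio, the floor, a pseudocount, the adjustment and centring.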

Additional observations from a re-analysis of the deposited data

How the results depend on the processing

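Each setting was changed alone. The count of 48 members became 19 at a ratio of at most 0.4, 239 at 0.67, 24 with a floor of 5 FPKM and 21 with 1 FPKM added to every value, and it was 26 among members that overlap no other annotated gene, an alternative chosen after seeing the data. It stayed between 32 and 70 under the other 7 settings. Of the members called after ABA in WT, 1 of 3 higher and 7 of 13 lower ones moved at least 2-fold. The 2 members with a splicing event at p under 0.05 became 0 after adjustment. In the last 150 bases of the window, ACGTG was in 20.8% of member promoters (14.7% of all) and TTGAC in 35.4% (28.3% of all). With 1 FPKM added, 39 of 96 member log2 ratios no longer reached the 2-fold limit.

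No paired analysis was possible because the tables hold 1 value per group. For the same reason no replicate was left out, no interaction was fitted, and depth and counting error are unknown.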
